A study of Mus musculus with 24 samples.

Results

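The 10 genes described here set the balance between growth and wasting of muscle, and were read across the gastrocnemius (a calf muscle) and the heart of mice lacking dystrophin, Cmah or both. They were the secreted factors myostatin (Mstn), Igf1 and Igf2, the binding proteins Fst and Igfbp5, the receptor Acvr2b, the transcription factors Foxo1 and Foxo3, and the ubiquitin ligases Fbxo32 (atrogin-1) and Trim63 (MuRF1). A probe set, the array's group of short probes for a transcript, counted as a member's when the platform annotation gave it exactly 1 symbol and that symbol, current or older, was on the list. This gave 24 of 45037 non-control probe sets, for 9 of the 10 genes. Mstn matched no such probe set and was not analysed here.

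The study used 24 Affymetrix mouse arrays, 1 for each of 2 tissues of 12 male mice aged 2 months, with 3 animals in each of 4 genotypes. Wild type mice and Cmah KO mice, which carry a mutation like the human one in Cmah and so lack the sialic acid Neu5Gc, have the strain label C57BL/6J. The mdx mice, which lack dystrophin as patients with Duchenne muscular dystrophy do, and Cmah KO mdx mice, deficient in both genes, have the label C57BL6/10J. Every comparison across dystrophin loss therefore also crosses the strain labels, and the effects of strain and of dystrophin cannot be told apart. All 24 arrays were made from whole tissue, so that fewer cells of a type and less RNA per cell cannot be told apart either. The labels give the animals as separate mice, the same 12 in both tissues.

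Insulin-like growth factors bind the receptor Igf1r, and Akt signalling below it raises protein synthesis and keeps the FoxO factors out of the nucleus. When Akt signalling falls, FoxO factors enter the nucleus and switch on Fbxo32 and Trim63, whose products mark muscle proteins for the proteasome. Myostatin and activins act through Acvr2b and the Smad proteins to restrain muscle mass, and follistatin (Fst) binds and blocks them. Igf2 is an imprinted gene expressed strongly before birth and again in regenerating muscle fibres.

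Of these genes, Igf2 was the member that passed the test for dystrophin loss, and Trim63 is a textbook target of FoxO factors, so their promoters are shown from RefSeq on GRCm38.p6. Each window runs from 250 bases before a transcription start to 50 bases after it, 5′ to 3′ on the gene's own strand. RefSeq gives 4 starts for Igf2, and neither of its probe sets says which start a signal came from. In capitals are matches, on either strand, to the FoxO binding element GTAAACA, the E-box CAGCTG bound by myogenic factors, and TATAAA.
Trim63, chr4:134314870-134315169, plus strand: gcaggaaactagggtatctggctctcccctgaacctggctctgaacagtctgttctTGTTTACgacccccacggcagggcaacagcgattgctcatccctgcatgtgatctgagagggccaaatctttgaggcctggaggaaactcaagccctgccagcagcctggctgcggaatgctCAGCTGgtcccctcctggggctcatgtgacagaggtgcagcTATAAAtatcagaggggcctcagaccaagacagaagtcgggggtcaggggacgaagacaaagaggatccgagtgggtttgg
Igf2 start 1, chr7:142666767-142667066, minus strand: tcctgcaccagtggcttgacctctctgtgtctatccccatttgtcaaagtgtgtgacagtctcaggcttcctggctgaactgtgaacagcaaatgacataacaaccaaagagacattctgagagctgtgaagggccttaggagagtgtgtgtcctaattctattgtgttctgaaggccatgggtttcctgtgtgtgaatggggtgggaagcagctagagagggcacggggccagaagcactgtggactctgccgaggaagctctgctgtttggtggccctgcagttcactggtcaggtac
Igf2 start 2, chr7:142661222-142661521, minus strand: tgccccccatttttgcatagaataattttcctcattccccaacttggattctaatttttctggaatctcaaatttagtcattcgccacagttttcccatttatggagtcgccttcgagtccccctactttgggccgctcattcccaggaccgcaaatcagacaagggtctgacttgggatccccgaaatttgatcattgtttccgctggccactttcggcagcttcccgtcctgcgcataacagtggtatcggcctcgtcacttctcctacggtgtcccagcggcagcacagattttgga
Igf2 start 3, chr7:142658755-142659054, minus strand: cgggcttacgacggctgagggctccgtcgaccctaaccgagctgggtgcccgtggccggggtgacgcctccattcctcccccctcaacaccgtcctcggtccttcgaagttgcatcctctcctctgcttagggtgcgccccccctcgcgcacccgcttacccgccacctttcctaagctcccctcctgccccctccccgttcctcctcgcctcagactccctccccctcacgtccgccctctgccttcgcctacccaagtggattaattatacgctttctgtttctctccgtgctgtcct
Igf2 start 4, chr7:142657447-142657746, minus strand: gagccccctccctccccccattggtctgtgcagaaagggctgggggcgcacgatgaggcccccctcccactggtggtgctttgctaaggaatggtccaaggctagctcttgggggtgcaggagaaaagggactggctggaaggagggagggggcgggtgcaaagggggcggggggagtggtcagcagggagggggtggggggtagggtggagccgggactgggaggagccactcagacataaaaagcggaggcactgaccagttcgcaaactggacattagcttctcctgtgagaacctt

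The Trim63 window held 1 match to each motif. Its FoxO element lay on the minus strand, where TGTTTAC is read on the printed strand, at -194 to -188 from the start. Its E-box lay at -72 to -67 and its TATAAA at -31 to -26. None of the 4 Igf2 windows held any of the 3 motifs, which says only that these letters are not in these windows. Among 32851 RefSeq promoter windows of the same length, 3.65% held GTAAACA or its reverse complement, 16.3% CAGCTG and 13.6% TATAAA or its reverse complement. Windows were found for 8 of the 10 genes, 11 windows in all. GTAAACA was found in 1 of the 11 windows, that of Trim63. The Igf1 window, chr10:87860861-87861160 on the plus strand, held an E-box at -157 to -152, and the Mstn window held TATAAA at -29 to -24.

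The tissue labels fitted the arrays: all 9 skeletal muscle markers were lower and all 9 cardiac markers higher in heart, each past the threshold in limma's test. The summed intensity of the skeletal markers was 86762 to 111013 in gastrocnemius and 663 to 23558 in heart. It varied widely among hearts, from 3497 to 23558 within wild type alone. The part of this spread in the heart values of the members was not tested. A pair of heart arrays, Cmah KO replicate 3 and Cmah KO mdx replicate 2, stood apart. Their 3' signal exceeded the 5' signal of the Gapdh control by 4.29 and 4.43 on the log2 scale, against 0.44 to 1.60 in the other 10 heart arrays. Their mean correlations with the other heart arrays were 0.543 and 0.837, against 0.909 to 0.924. The main results that rest on heart are therefore also given without them. In gastrocnemius the bioB hybridisation control was brightest, at log2 10.85 to 11.32, on 1 array of each group, against 8.91 to 10.18 on the other 8. Those 4 arrays also had the largest Gapdh differences, 0.76 to 1.02 against 0.36 to 0.71. Their deviations from the group means correlated with each other at 0.56 to 0.62, and with those of the other arrays at -0.64 to -0.15.

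Igf2 was the one member that passed the test for dystrophin loss in gastrocnemius. It encodes the growth factor made by regenerating fibres. At its brighter probe set, 1448152_at, the log2 intensities in gastrocnemius were 10.11, 8.92 and 7.66 in the 3 wild type animals and 7.36, 9.13 and 8.59 in the Cmah KO animals. They were 10.55, 11.71 and 11.87 in mdx and 10.39, 11.28 and 11.87 in Cmah KO mdx. Every dystrophin-deficient animal was above every animal with dystrophin, the highest wild type array lying close below the lowest Cmah KO mdx array. Such a separation of 6 arrays from 6, in either direction, was found for 1.64% of the 29518 probe sets tested.

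Averaged over both Cmah genotypes, Igf2 rose by 2.65 ± 0.46 on the log2 scale with dystrophin loss (SE), a 6.28-fold change, and the Benjamini-Hochberg adjusted p from limma was 0.0270. The dimmer probe set, 1415931_at, read 3.93, 3.49 and 3.10 in wild type and 2.91, 3.09 and 2.93 in Cmah KO. It read 4.45, 6.08 and 6.56 in mdx and 4.05, 5.00 and 6.40 in Cmah KO mdx, and these arrays too lay above all others. All 6 of its arrays with dystrophin lay under the 40th percentile of gastrocnemius signal, log2 4.66. It passed the filter on low values only through the dystrophin-deficient groups and so had to differ, and its levels are given as a description, with no fold and no test.

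**Figure D1:**
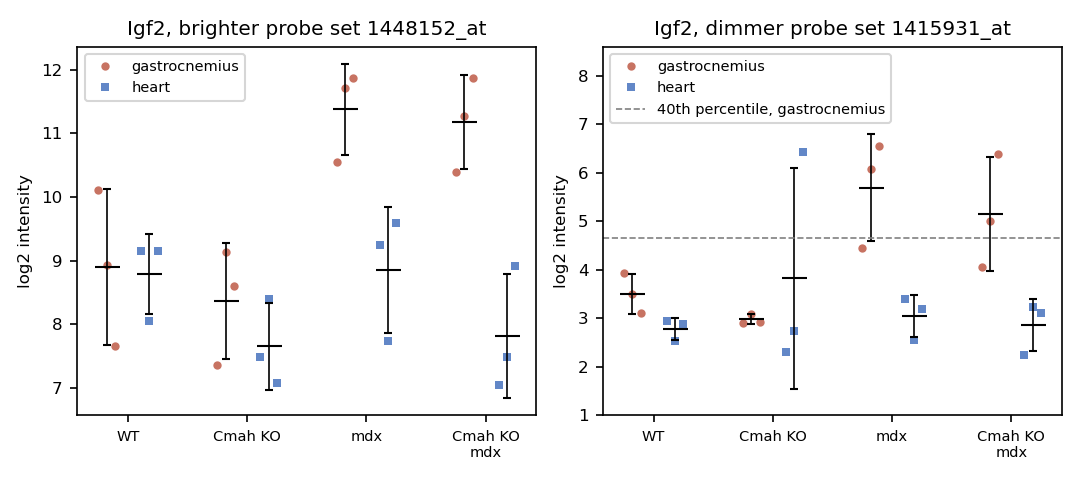
Log2 intensity of Igf2 at its brighter (left) and dimmer (right) probe set in each array, by genotype, for gastrocnemius (red circles) and heart (blue squares), with the mean ± SD of 3 animals in black. In gastrocnemius the mdx and Cmah KO mdx arrays lie above all wild type and Cmah KO arrays, while the heart groups overlap. The dashed line is the 40th percentile of gastrocnemius signal, and the heart value of 6.44 in Cmah KO at right belongs to an array that stood apart.

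Both Cmah genotypes showed the Igf2 difference at similar size, and neither passed the test by itself. In mdx against wild type the difference was 2.48 ± 0.66 (limma, adjusted p = 0.608), and in Cmah KO mdx against Cmah KO it was 2.82 ± 0.66 (adjusted p = 0.156). The interaction, the gap between those differences, was 0.34 ± 0.93 (adjusted p = 1.00). The averaged call depended on single animals. It was kept in 5 of the 12 fits that left out 1 array and lost in 7, while the difference itself stayed between 2.34 and 2.95 over all alternatives. Leaving out wild type replicate 2 (adjusted p = 0.0739), Cmah KO replicate 1 (0.0565) or 3 (0.0657), mdx replicate 2 (0.0895) or 3 (0.0555), or Cmah KO mdx replicate 2 (0.0862) or 3 (0.0864) ended it in limma's test.

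Within each genotype the animal with the lowest gastrocnemius Igf2 was the one whose array had the brightest bioB control, in 4 of 4 groups and at both probe sets. The same held in 3 of 4 heart groups at the brighter probe set. In wild type and mdx the same animal had the brightest bioB control in both tissues. In Cmah KO and Cmah KO mdx this was so with the 2 heart arrays that stood apart set aside. The tissues are therefore not separate observations of this. With those 4 gastrocnemius arrays left out, Igf2 rose by 2.49 ± 0.32 (limma, adjusted p = 0.0324). With bioB as a covariate the rise was 2.59 ± 0.23 (adjusted p = 0.000572). The difference is thus of similar size without these arrays, which also had the largest Gapdh differences and deviated together.

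Of the 21 member probe sets with signal above the filter in gastrocnemius both with and without dystrophin, 1 passed for averaged dystrophin loss, the brighter one of Igf2. The share over all probe sets was 0.857%, or 253 probe sets. At the brightest probe sets 5 of 9 members were higher and 4 lower, with a median change of 0.06 against 0.02 over the 13209 genes tested. No member passed in mdx against wild type, where 0.0169% of probe sets did, or in Cmah KO mdx against Cmah KO, where 0.112% did. In these comparisons 1 and 2 of 9 members had an unadjusted limma p under 0.05, as did 3.6% and 7.76% of all probe sets.

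Neither ubiquitin ligase passed the test for dystrophin loss. Fbxo32, the F-box subunit known as atrogin-1, read 10.67, 10.36 and 10.54 in wild type, 11.47, 10.39 and 11.00 in Cmah KO, 10.50, 10.21 and 10.37 in mdx, and 10.52, 9.75 and 9.52 in Cmah KO mdx. The lowest values were in Cmah KO mdx, and the groups overlapped. Its averaged difference was -0.60 ± 0.24 (unadjusted p = 0.0289, adjusted p = 0.396 in limma), with -0.17 ± 0.34 in mdx against wild type and -1.03 ± 0.34 in Cmah KO mdx against Cmah KO (adjusted p = 0.371). The interaction was -0.86 ± 0.48 (adjusted p = 1.00). The other probe sets of Fbxo32 differed by -0.32 and -0.51 on average, in the same direction. In Cmah KO mdx both of these lay below all Cmah KO arrays, and 12.5% of all probe sets were separated between these groups in either direction.

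Trim63, the ligase MuRF1 of the sarcomere, was measured by 1 probe set. It read 11.66, 11.27 and 11.76 in wild type, 12.02, 11.06 and 11.75 in Cmah KO, 11.61, 10.60 and 10.95 in mdx, and 11.43, 11.39 and 11.30 in Cmah KO mdx. The groups overlapped, and the averaged difference was -0.37 ± 0.24 (limma, adjusted p = 0.719). Trim63 and the brightest probe set of Foxo3 were highest on the brightest-bioB array in 4 of 4 gastrocnemius groups, and that of Fbxo32 in 3 of 4, the arrays that also had the largest Gapdh differences. The part of array quality in these values was not tested.

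The FoxO factors, which switch on both ligases when active, showed no difference past the threshold. Foxo1 averaged 9.57 ± 0.52 in wild type, 9.34 ± 0.57 in Cmah KO, 9.04 ± 0.56 in mdx and 9.36 ± 0.30 in Cmah KO mdx (SD, n = 3), with overlapping arrays and a difference of -0.26 ± 0.28 with dystrophin loss (limma, adjusted p = 0.908). Its other 3 probe sets gave -0.76, -0.66 and 0.04, so they differed in direction. Foxo3 averaged 11.43 ± 0.18, 11.45 ± 0.41, 11.53 ± 0.30 and 11.55 ± 0.50 in the same order, and differed by 0.10 ± 0.23 (adjusted p = 0.980). These are transcript levels, whereas FoxO activity is set largely by phosphorylation, which the arrays do not measure.

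Igf1, the other growth factor of the pair, did not pass the test. It averaged 9.69 ± 0.51 in wild type, 9.52 ± 0.18 in Cmah KO, 9.65 ± 0.18 in mdx and 9.68 ± 0.36 in Cmah KO mdx gastrocnemius (SD, n = 3). Its difference with dystrophin loss was 0.06 ± 0.22 (limma, adjusted p = 0.986), and its other 3 probe sets gave -0.10, 0.31 and 0.16. Igfbp5, a binding protein that holds growth factors in the matrix, averaged 11.86 ± 0.01, 11.84 ± 0.28, 11.99 ± 0.25 and 11.83 ± 0.24 in the same order. It differed by 0.06 ± 0.18 (adjusted p = 0.986).

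On the myostatin side, Fst averaged 9.31 ± 0.67 in wild type, 9.82 ± 0.52 in Cmah KO, 9.73 ± 0.29 in mdx and 9.69 ± 0.35 in Cmah KO mdx, a difference of 0.14 ± 0.27 (limma, adjusted p = 0.970). The receptor Acvr2b spread widely within groups, at 6.05 ± 1.16, 6.15 ± 1.05, 5.71 ± 0.98 and 5.85 ± 0.75. Its difference was -0.32 ± 0.50 (adjusted p = 0.956).

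**Figure D2:**
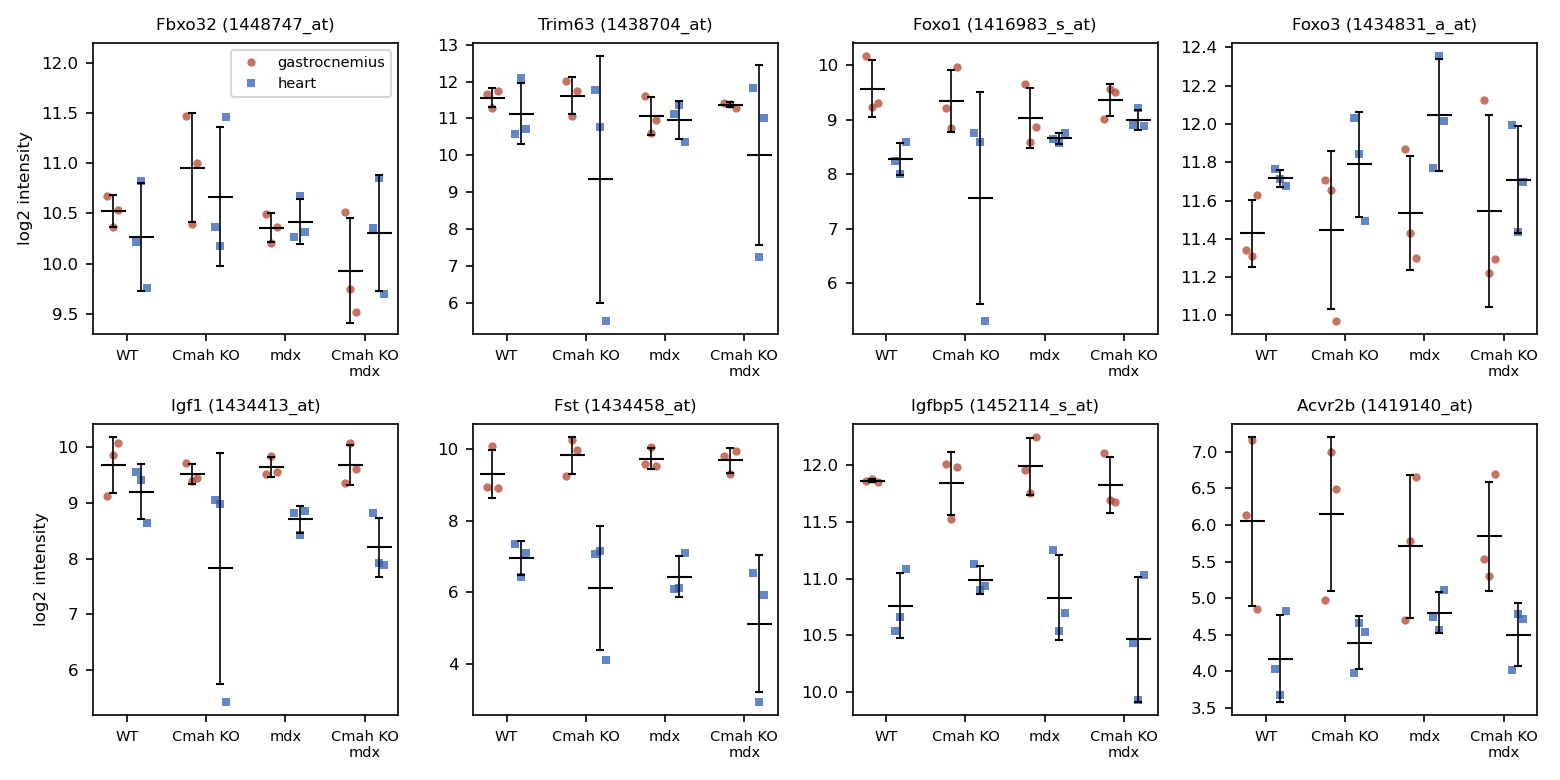
Log2 intensity of the other 8 members at their brightest probe set in each array, by genotype, for gastrocnemius (red circles) and heart (blue squares), with mean ± SD of 3 animals in black. Each panel has its own scale. The gastrocnemius arrays with and without dystrophin overlap in every panel, Fst and Igfbp5 separate the tissues in every genotype, and the lowest heart points of Trim63, such as 5.51, belong to the 2 arrays that stood apart.

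**Figure D3:**
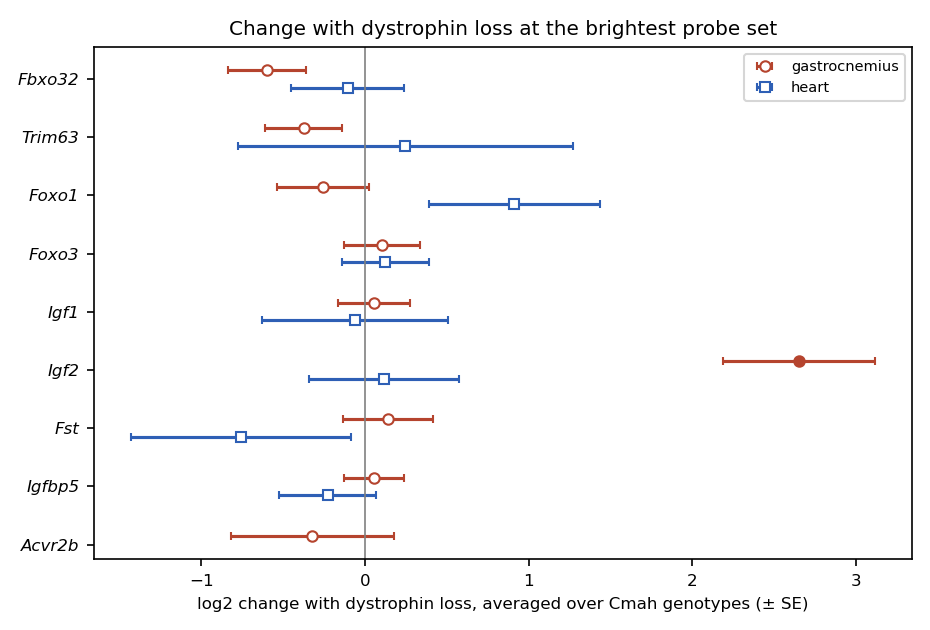
Log2 change with dystrophin loss, averaged over both Cmah genotypes, of each member at its brightest probe set in gastrocnemius (circles) and heart (squares), with the SE from limma. Filled symbols passed the threshold: only Igf2 in gastrocnemius, at 2.65, did so. Acvr2b has no heart value because it was not tested there.

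In heart, Igf2 did not separate by dystrophin. The arrays read 9.15, 8.05 and 9.15 in wild type, 7.48, 8.40 and 7.07 in Cmah KO, 9.25, 7.73 and 9.59 in mdx, and 7.04, 7.48 and 8.91 in Cmah KO mdx. The arrays with and without dystrophin overlapped, and the averaged difference was 0.12 ± 0.46 (limma, adjusted p = 0.999), or 0.06 ± 0.50 without the 2 arrays that stood apart. The other 7 members tested in heart differed by between -0.76 ± 0.67 (Fst) and 0.91 ± 0.52 (Foxo1), none past the threshold. Without the 2 arrays that stood apart, Foxo1 differed by 0.30 ± 0.17 and Fst by -0.71 ± 0.28.

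No member passed any of the dystrophin comparisons in heart, and 0% of the 29421 probe sets did so in limma's test. At an unadjusted p under 0.05 there were 0 members and 246 probe sets for averaged dystrophin loss. The counts were 103 probe sets for mdx against wild type and 568 for Cmah KO mdx against Cmah KO.

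The dystrophin change of Igf2 differed between the tissues by -2.53 ± 0.57, heart minus gastrocnemius (limma over 24 arrays with animal as a random block, adjusted p = 0.0491). Of the 19 member probe sets above the filter in both tissues it was the 1 to pass, where 0.423% of all such probe sets did. The dimmer probe set was near the floor in heart, at 2.25 to 3.39 on all arrays but the one of Cmah KO replicate 3, which read 6.44 and stood apart, and it gives no second measure of this difference. The call lay at the threshold. It was lost in 19 of the 24 fits that left out 1 array, and was kept without wild type gastrocnemius replicate 1 (0.0192), Cmah KO gastrocnemius replicate 2 (0.0492), Cmah KO mdx gastrocnemius replicate 1 (0.0331), Cmah KO heart replicate 3 (0.0293) or Cmah KO mdx heart replicate 3 (0.0268). Without both heart arrays that stood apart the difference was -2.57 ± 0.61 and the adjusted p 0.0504.

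Read animal by animal, gastrocnemius Igf2 exceeded heart Igf2 in all 6 dystrophin-deficient mice, by 2.12, 2.62 and 2.82 in mdx and by 2.37, 3.35 and 4.39 in Cmah KO mdx. In wild type mice the same difference was -0.40, -0.22 and 0.96, and in Cmah KO mice it was -0.12, 0.73 and 1.52. The dystrophin-deficient animals lay above all others in this measure. The largest of the differences, 4.39, and that of 1.52 came from the 2 animals whose heart arrays stood apart.

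Most members were lower in heart than in gastrocnemius. Averaged over the 4 genotypes, 5 of the 8 members with signal above the filter in both tissues were lower and passed limma's test. Of their 19 probe sets 12 passed, where 28.1% of all probe sets in the fit did, and 26.8% of those above the filter in both tissues. Without the 2 heart arrays that stood apart the same 5 members and Foxo3 passed, 15 of 19 probe sets, against 41.2% of all such probe sets. The median difference of these members was -1.08, and -0.75 without those arrays. Fibroblast markers were lower in heart in 10 of 10 genes, with 7 past the threshold, macrophage markers in 11 of 11, with 3, and endothelial markers were higher in 7 of 8, with 2. Their part in the differences of the members was not tested.

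Of the 9 members, Fst, the blocker of myostatin and activins, differed most between the tissues. Its heart means were 6.96 ± 0.47 in wild type, 6.11 ± 1.74 in Cmah KO, 6.43 ± 0.57 in mdx and 5.13 ± 1.92 in Cmah KO mdx (SD, n = 3), against 9.31 to 9.82 in gastrocnemius. Gastrocnemius exceeded heart in 12 of 12 animals, by 1.84 to 3.48 on the log2 scale in the 10 whose heart arrays did not stand apart. In the other animals the gap was 5.86 and 7.01, with heart values of 4.11 and 2.94, under the 40th percentile of heart signal, log2 4.78. The averaged difference was -3.48 ± 0.34 (limma, adjusted p = 6.84e-08), and -2.95 without the 2 heart arrays that stood apart (adjusted p = 1.68e-10). The second Fst probe set differed by -1.55.

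Igf1 was lower in heart by 1.15 on the log2 scale (-1.15 ± 0.28, limma, adjusted p = 0.00391), and all 4 of its probe sets passed, at -1.11 to -1.27. Gastrocnemius was higher in 12 of 12 animals. Without the 2 heart arrays the difference was -0.82. Igfbp5 averaged 10.76 ± 0.28, 10.99 ± 0.12, 10.83 ± 0.37 and 10.46 ± 0.55 in wild type, Cmah KO, mdx and Cmah KO mdx heart, and differed by -1.12 ± 0.15 (adjusted p = 4.58e-06). No heart array of any genotype reached the lowest gastrocnemius array of Igfbp5, and the difference was -1.05 without the 2 arrays.

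Acvr2b had heart means of 4.18 ± 0.59 in wild type, 4.39 ± 0.36 in Cmah KO, 4.80 ± 0.28 in mdx and 4.50 ± 0.43 in Cmah KO mdx, and 12 of 12 animals had a lower value in heart. Only 2 of its 12 heart arrays lay above the 40th percentile of heart signal. It entered the fit through gastrocnemius alone, so its levels are a description and it is not among the counted members. Foxo1 differed by -0.96 ± 0.29 (limma, adjusted p = 0.0150) and by -0.68 without the 2 arrays. Its other probe sets gave -0.80, -0.84 and 0.14 on all arrays, so they differed in direction. Igf2 differed by -1.68 ± 0.29 (adjusted p = 0.000111), and by -1.54 without the 2 arrays. This is a mean over the groups, and wild type had 8.90 ± 1.23 in gastrocnemius and 8.78 ± 0.63 in heart.

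The remaining 3 members did not pass. Foxo3 was the one member higher in heart at its brightest probe set, by 0.33 ± 0.15 (limma, adjusted p = 0.102), in 11 of 12 animals. Without the 2 arrays that stood apart the difference was 0.38 and passed (adjusted p = 0.0230). Its probe set 1434832_at differed by -0.05 ± 0.36 on all arrays, and by 0.51 without those 2. Trim63 differed by -1.04 ± 0.50 (adjusted p = 0.132), but by -0.21 without those arrays, whose values of 5.51 and 7.24 were far below the 10.37 to 12.10 of the other 10 heart arrays. Fbxo32 differed by -0.03 ± 0.19 at its brightest probe set (adjusted p = 0.934). Its probe sets disagreed, since 1417522_at was lower in heart by -0.999 ± 0.30 (adjusted p = 0.0167) while 1435265_at had a value of 0.39, higher in heart. Without the 2 heart arrays that stood apart these became -0.60 (adjusted p = 0.0204) and 0.60 (adjusted p = 0.000260), both past the threshold in opposite directions.

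**Figure D4:**
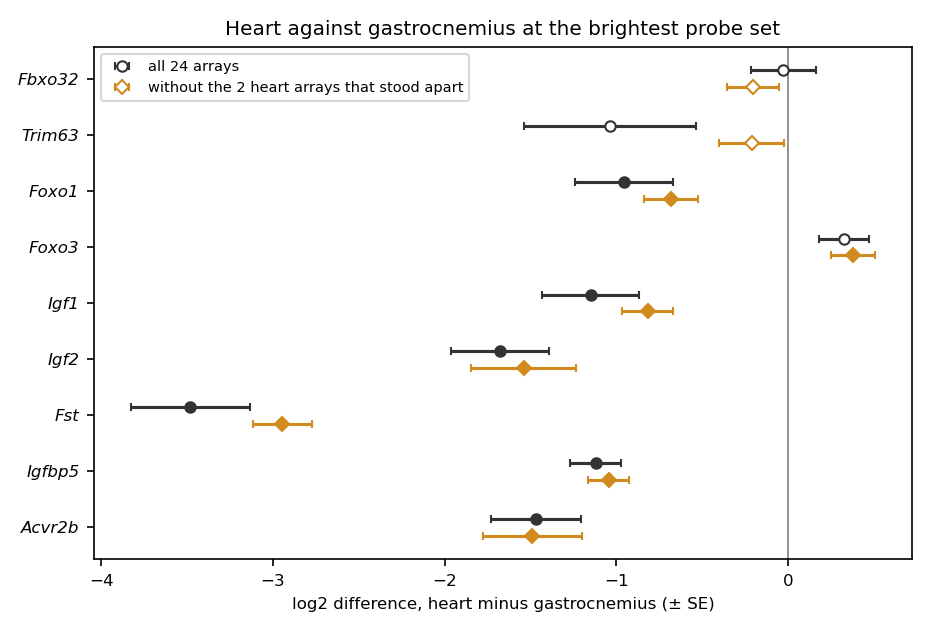
Log2 difference of heart minus gastrocnemius, averaged over the 4 genotypes, for each member at its brightest probe set, from all 24 arrays (dark circles) and without the 2 heart arrays that stood apart (orange diamonds), with the SE from limma. Filled symbols passed the threshold, but Acvr2b was not above the filter in heart and is shown as a description. Fst lies lowest, at -3.48 and -2.95, and Trim63 moves from -1.04 to -0.21.

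With loss of Cmah no member passed the threshold in either tissue. In gastrocnemius 0 of 9 members passed in limma's test and 0 had an unadjusted p under 0.05 for averaged Cmah loss, where 0.00339% of probe sets passed. Member differences ran from -0.37 ± 0.46 (Igf2) to 0.23 ± 0.27 (Fst). No member passed in Cmah KO against wild type either, where 0% of probe sets did and 332 had an unadjusted p under 0.05, or in Cmah KO mdx against mdx, where 0.00339% did. In the dystrophic animals Igf2 differed by -0.20 ± 0.66 and Fbxo32 by -0.43 ± 0.34. The interaction passed for 0% of probe sets, with 311 at an unadjusted p under 0.05 and no member among them.

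In heart, 0% of probe sets passed limma's test in any of the Cmah comparisons or the interaction. At an unadjusted p under 0.05 there were 250 probe sets for Cmah KO against wild type, 464 for Cmah KO mdx against mdx and 143 for the interaction, with no member among them. For averaged Cmah loss there were 705, and 1 member. That member was Igf2, at -1.09 ± 0.46 (unadjusted p = 0.0346, adjusted p = 0.618), and it was -0.86 without the 2 arrays that stood apart. Of the 8 members tested in heart 1 was higher, with a median of -0.57, but both of those arrays carry the Cmah mutation and the median over all probe sets was shifted as well, by -0.27. Without them Trim63 went from -1.36 to 0.29 and Fst from -1.08 to -0.03.

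Few of the genes that act with these members passed the test in dystrophin-deficient gastrocnemius, where 0.857% of all probe sets did. At that share few calls are to be looked for in lists of this size. Their scarcity is therefore no result about these genes. An unadjusted p under 0.05 was found for 10.1% of all probe sets. Of the myostatin and activin ligands and the enzymes that mature them, 0 of 5 genes tested passed limma's test, and 0 had an unadjusted p under 0.05. Inhbb, an activin subunit, had 0.43 ± 0.28 and Inhba 0.11 ± 0.28. Of 4 antagonists none passed, and 2 had an unadjusted p under 0.05: Wfikkn2, a secreted myostatin inhibitor, at -0.99 ± 0.25 (adjusted p = 0.111) and Fstl1 at 0.62 ± 0.25 (adjusted p = 0.398). Of 11 receptors and Smads none passed and 1, Tgfbr2 at 0.50 ± 0.22, had an unadjusted p under 0.05, followed by Acvr1c at -0.78 ± 0.52.

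On the growth factor side none passed either. Of 10 receptors and binding proteins 6 were higher and 0 passed limma's test, with 1 at an unadjusted p under 0.05. That was Igfals, a carrier subunit of circulating growth factor, at -1.17 ± 0.50 (adjusted p = 0.439), followed by Igfbp7 at 0.40 ± 0.19 (adjusted p = 0.510). Igf1r, through which both growth factors signal, had -0.01 ± 0.18, and Igf2r, which clears Igf2, had 0.23 ± 0.17. Of 17 genes of Akt and mTOR signalling 7 were higher and 0 passed, with 1, Akt1 at 0.45 ± 0.20, at an unadjusted p under 0.05, followed by Irs2 at -0.91 ± 0.54.

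The degradation lists did not shift in 1 direction. Of 14 other ubiquitin genes of atrophy 5 were higher, and 0 passed limma's test or had an unadjusted p under 0.05. Fbxo31 had -0.46 ± 0.28 and Usp14 -0.50 ± 0.40. Of 19 FoxO targets and autophagy genes 9 were higher and 10 lower, and 1 passed. That was Cdkn1a, the cell cycle inhibitor p21, which rose by 1.21 ± 0.20 (adjusted p = 0.0226), from 9.43 ± 0.16 in wild type and 9.40 ± 0.48 in Cmah KO to 10.26 ± 0.15 in mdx and 11.00 ± 0.24 in Cmah KO mdx (SD, n = 3). Cdkn1a is also induced by p53 and during muscle differentiation.

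Of 8 other imprinted and fetal growth genes tested, 1 passed in dystrophin-deficient gastrocnemius, where 0.857% of all probe sets did. Of these 8, 7 had a higher mean and 1 a lower one, with a median of 0.57 against 0.02 over all genes, and 5 had an unadjusted p under 0.05. Peg3, an imprinted zinc finger gene, passed at 1.30 ± 0.19 (limma, adjusted p = 0.0106), and Mest had 1.55 ± 0.36 (adjusted p = 0.0791). Igf2bp3, which binds Igf2 transcripts, was the gene of this list that was lower, at -0.99 ± 0.31 (adjusted p = 0.210). In heart, Mest had 0.01 ± 0.42 and Peg3 0.85 ± 0.78 with dystrophin loss.

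Markers of regeneration and of macrophages were higher in the same gastrocnemius groups as Igf2. All 17 regeneration genes were higher, with a median of 1.97, and 8 passed limma's test, where 0.857% of all probe sets did. Among them were Mymx at 5.47 ± 0.72, Myh8 at 4.35 ± 0.37, Myh3 at 3.70 ± 0.28 and Mymk at 3.54 ± 0.40. The list was chosen with earlier results of these data known. Whether these genes, or the macrophage and imprinted genes that passed, were above the filter in animals with dystrophin is not given here. A gene above the filter only without dystrophin had to differ, as the dimmer Igf2 probe set did. The fold and call of such a gene would be a description only. Mymk and Mymx drive the fusion of myoblasts, and Myh3 and Myh8 are the embryonic and perinatal myosins. The summed intensity of the list was 10054 to 14826 in wild type, 11380 to 15522 in Cmah KO, 17833 to 30168 in mdx and 20349 to 34979 in Cmah KO mdx. The animals with and without dystrophin did not overlap in this sum.

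All 11 macrophage markers tested were higher as well, with a median of 1.39, and 2 passed in limma's test, Ctss at 1.93 ± 0.34 and Tyrobp at 1.85 ± 0.36. Their sum, over the 12 genes on the array, was 6661 to 18741 in wild type, 7041 to 9308 in Cmah KO, 19828 to 26597 in mdx and 16650 to 35064 in Cmah KO mdx, with 1 wild type array above the lowest Cmah KO mdx array. Fibroblast markers were higher in 10 of 10 genes, with a median of 0.41, and 0 passed limma's test while 3 had an unadjusted p under 0.05, among them Pdgfra at 0.63 ± 0.20 and Fap at 0.82 ± 0.30. Adipocyte markers were lower in 5 of 5 genes, with a median of -0.88, endothelial markers higher in 4 of 8 and cardiac markers lower in 6 of 6, and 0 of these passed, with 1 adipocyte gene (Retn) at an unadjusted p under 0.05. The part of these cells in the rise of Igf2 was not tested. Skeletal muscle markers were higher in 5 of 9 genes, with a median of 0.01, and 0 passed in limma's test or had an unadjusted p under 0.05. In heart, the regeneration sum overlapped between groups, at 18242 to 22478 in wild type and 13940 to 25443 in mdx. Only 11 of the 17 genes passed the filter there. The sum in wild type heart lay above that in wild type gastrocnemius, so in heart it does not read regeneration alone.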

How the data were processed

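RNA (25 ng per array) was amplified and labelled with a NuGEN Ovation kit, per the labels' protocols. The authors deposited linear intensity values for 45101 probe sets, made with GCOS and RMA per the submitters' processing notes, with medians of 41.9 to 50.7 per array. How the arrays were scaled to each other is not given in the sources used here, and a scaling can hide a shift of all genes. Here 64 control probe sets were set aside and log2 was taken. Symbols came from the platform annotation (34945 probe sets with 1 symbol, 932 with several, 9160 with none). A member was read from its probe set of highest mean over 24 arrays. Its other probe sets were tested where they passed the filter, which 22 member probe sets did in gastrocnemius and 20 in heart.

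A probe set was tested where at least 3 of 12 arrays of a tissue lay above that tissue's 40th percentile. Group means were fitted with limma 3.58.1 under R 4.3.3 (two-sided moderated tests, Benjamini-Hochberg over all tested probe sets, threshold 0.05). Fits over both tissues had animal as a random block (correlation 0.217). Scripts were tested on simulated data. Replicate numbers were not used to pair samples in the main fits. Deviations of same-numbered gastrocnemius arrays correlated at -0.58 to 0.61 (median 0.18), and of others at -0.64 to 0.62 (median -0.09). In heart these were -0.42 to 0.64 (median 0.002) and -0.64 to 0.59 (median -0.05). These ranges do not settle whether the numbers pair samples, and fits with a replicate block are given below. The highest correlation of any pair of arrays was 0.993, so no array is a copy of another. The number of arrays limits the precision.

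The members and the 15 gene lists were chosen with earlier results of these data known. Of each list the text names up to 4 genes past the threshold with the largest dystrophin change in gastrocnemius, or the 2 of smallest p, though not every one is printed. Igf1r, Igf2r, Mest, Igf2bp3 and Retn were named after their values were seen. Promoter windows came from RefSeq (GRCm38.p6), matched by symbol.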

Additional observations from a re-analysis of the deposited data

Results flagged for a closer look

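Igf2 at its brighter probe set was marked because its change with dystrophin loss differed between heart and gastrocnemius by -2.53 on the log2 scale, in a test of that difference itself (limma with animal as a random block, Benjamini-Hochberg adjusted p = 0.0491). The averaged change was 2.65 ± 0.46 in gastrocnemius and 0.12 ± 0.46 in heart. The summed regeneration markers were higher in dystrophin-deficient gastrocnemius and overlapped between the heart groups. In heart this sum does not read regeneration alone, since wild type heart lay above wild type gastrocnemius. The part of regeneration in the Igf2 difference was not tested.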

How the results depend on the processing

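Counts are of member probe sets past the threshold in limma's test. They take in the dimmer Igf2 probe set, which gives no second measure of a difference. It passed the filter only through dystrophin-deficient gastrocnemius and so had to differ. Its part in a count is a description, not a test. For averaged dystrophin loss in gastrocnemius the count of 2 takes in the dimmer Igf2 probe set. This count became 1 with no filter and 1 with a stricter filter, and it ranged from 0 to 2 when 1 array was left out. For mdx against wild type the count of 0 became 1 with the bioB signal as a covariate (Igf2, adjusted p = 0.0295). For Cmah KO mdx against Cmah KO the count of 0 became 2 with array weights and 1 with bioB as a covariate. For the tissue by dystrophin difference the count of 1 became 0 with no filter, with trend and robust variance, with no animal block and without the 2 heart arrays that stood apart, became 2 with array weights, and ranged from 0 to 1 when 1 array was left out. With the replicate block it was 0, and the Igf2 difference of -2.53 had an adjusted p of 0.0703. By itself the brighter Igf2 probe set passed for this difference in 9 alternatives, 5 of them with 1 array left out. The dimmer one is not read as a test of this difference. The replicate block left the averaged gastrocnemius Igf2 value at 2.65 (adjusted p = 0.0465) and changed no other count of member probe sets. Of 3433 further single-member values over 83 fits, 3085 kept direction and side of the threshold, and 294 uncalled values changed sign. A call was gained by 12 and lost by 42, and no called value changed sign. The alternatives on bioB and on the 2 heart arrays were chosen after seeing the data. For these shifts the cause was not tested, beyond the fact that fewer arrays or more probe sets enter some fits. Signal near the 40th percentile limits the dimmer Igf2 probe set and Acvr2b in heart.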
